A study of Mus musculus and Homo sapiens with 27 samples.

Results

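The AP-1 family early genes are 8 mouse genes, Fos, Fosb, Fosl1, Fosl2, Jun, Junb, Jund and Atf3, followed here by their Ensembl IDs in RNA sequencing counts of MC38 cells. They were 8 of 56691 counted mouse features, and all 8 were among the 11676 that passed the low-count filter. Since the MC38 comparisons were in view when these genes were chosen, their MC38 values are a description and carry no test. In HEK293T cells FOS (ENSG00000170345) and JUN (ENSG00000177606) were found by ID among 57992 features, and the other 6 human genes were not analysed here. The choice names FOS and JUN by ID and uses no HEK293T value of theirs, so these were tested.

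AP-1 is a dimeric transcription factor. A FOS, JUN or ATF protein pairs with a partner through a leucine zipper and binds DNA through the neighbouring basic region. FOS proteins need a JUN partner, whereas JUN proteins can also pair with each other. Many of these genes are immediate early genes: growth factors, serum and stress switch them on within minutes without new protein synthesis. Several of their mRNAs are short lived, in part through AU-rich elements in the 3′ untranslated region that recruit decay factors. The proteins are made on cytosolic ribosomes and work in the nucleus, and none carries a signal sequence for the endoplasmic reticulum (ER).

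The study labelled RNA by proximity, using light made inside the cell. The human line HEK293T, from embryonic kidney, and the mouse line MC38, from a colon carcinoma, both stably expressed LAP at the ERM. These abbreviations are the submitters', and the ERM is read here as the ER membrane. For labelling, cells received 10 mM of a probe called PA and 50 µM furimazine, a luciferase substrate, in serum-containing medium for 15 to 60 min. Each set had 3 groups of 3 libraries. Label_Enrich was RNA of labelled cells captured on streptavidin beads after biotin was clicked on. Label_Input was RNA of labelled cells kept before capture. NonLabel_Enrich was captured RNA of cells that the titles call unlabelled, and how those cells were treated is not spelled out. RNA of unlabelled cells before capture was not analysed here, so a response of the cells to labelling and a difference in what the beads held cannot be told apart for these genes. The sources used here do not say whether each line was a single clone, nor what 3G and 12G in the set names mean.

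Library totals ran from 13127181 to 18614808 counts in MC38 12G and from 442059 to 1135243 in HEK293T 3G. In MC38 only 1686731 to 6022322 counts a library remained once the 2 most abundant features were set aside. The MC38 3G libraries held 67.8% to 68.9% of the 12G totals, with 0 features higher in 3G in any same-titled pair, and were treated as shallower counts of the same libraries. Levels below are CPM, counts relative to library size scaled with TMM factors (trimmed mean of M values), which set each library relative to the bulk of the tested genes. A higher or lower level is therefore relative and not an amount of RNA. Markers of the labelled cell type were scarce: Epcam, an epithelial adhesion molecule, was at 0 in all 9 MC38 libraries, and 7 epithelial markers summed to 0.877 to 1.72 CPM. Of 8 blood-lineage markers, those at 0 included Cd3e, Lyz2, Itgam and Adgre1.

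The proximal promoters of 4 members are shown because their mRNAs differ in pattern below: Fos, Fosb and Atf3 moved together over the MC38 libraries, and Jun did not move with them. Junb also moved with Fos, Atf3 and Fosb (Pearson's r = 0.889, 0.96 and 0.962). Its promoter is not printed and held none of the motifs marked below. Each line gives the 100 bases before the RefSeq gene start, 5′ to 3′ on the gene's strand, from the mouse build GRCm38.p6. The counted files use GRCm39, and the coordinates belong to the older build. Capitals mark TGACGT (read as ACGTCA where it lies on the other strand), the core of the cAMP response element, TGACATCA, an 8-base AP-1 and ATF element described in the JUN promoter, and TATAAA, the TATA box.
Fos, chr12:85473790-85473889, plus strand: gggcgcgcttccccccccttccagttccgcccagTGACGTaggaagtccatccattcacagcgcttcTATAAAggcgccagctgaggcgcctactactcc
Atf3, chr1:191183334-191183433, minus strand: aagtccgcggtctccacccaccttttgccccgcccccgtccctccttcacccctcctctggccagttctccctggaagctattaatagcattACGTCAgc
Fosb, chr7:19310046-19310145, minus strand: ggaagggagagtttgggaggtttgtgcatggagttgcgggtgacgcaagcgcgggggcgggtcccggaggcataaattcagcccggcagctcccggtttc
Jun, chr4:95052223-95052322, minus strand: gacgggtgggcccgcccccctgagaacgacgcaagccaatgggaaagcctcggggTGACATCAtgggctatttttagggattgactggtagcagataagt

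Both strands were searched in 7 members with an entry in the promoter table. TGACGT was found in Fos, 66 to 61 bases before the start, and in Atf3, 8 to 3 bases before it. It was present in 4.09% of the 32851 promoters in the same 100-base window. TGACATCA was found in Jun alone of the 7, 45 to 38 bases before the start, and in 1.96% of all promoters. TATAAA was found in Fos alone, 33 to 28 bases before the start, and in 5.56% of all promoters. The AP-1 element TGANTCA was found in none of the 7, against 2.73% of all promoters. These matches are letters in a window and say nothing of binding in these cells.

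The 3′ untranslated regions carry the pentamer ATTTA, the core of AU-rich decay elements, at different densities. The densest 30-base windows of 3 members are shown to place that motif, written in capitals and as DNA, from GENCODE M21 transcripts.
Fos, bases 642 to 671 of the 3′ region: ttgtgttttcaATTTATTTAttaagatgga
Fosl2, bases 3675 to 3704: aattgacATTTAttttattATTTAttttaa
Jun, bases 1031 to 1060: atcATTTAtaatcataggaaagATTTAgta

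In the Fos window the pentamers overlap. Fos had the densest region of the 8, with 4.91 pentamers per kb, followed by Junb with 4.12 and Jun with 3.24. Atf3 had 2.53, Jund 1.88, Fosl2 1.72, Fosl1 1.57 and Fosb 0.466 per kb. The median over 10029 tested genes with at least 100 bases of 3′ region was 1.39 per kb, and 71.2% held at least 1 pentamer. Jun, Junb and Jund each have 1 exon, as do 2.61% of tested coding genes, and the other 5 members have 4. Transcript lengths ran from 1668 bases for Jund to 6537 for Fosl2, around a median of 2953 for tested genes.

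In captured RNA of labelled MC38 cells the FOS-type members Fos and Fosb, together with Atf3 and Junb, stood well below the level before capture, and Jun alone stood above it. Against captured RNA of unlabelled cells, all 8 stood lower, by 2.58-fold for Fos and 2.57-fold for Atf3 and least for Jund. Before capture in labelled cells and after capture in unlabelled cells, TMM-scaled levels of Fos, Fosb and Atf3 were close to each other. Their log2 fold changes were -0.21 ± 0.09, 0.12 ± 0.12 and 0.15 ± 0.08 for NonLabel_Enrich against Label_Input. Other settings moved these 3 values: Fos stood at -0.37 in the 3G counts, and totals without the 2 most abundant features put Fosb at 0.32 and Atf3 at 0.35. Library totals of all features moved them most, to 1.09 for Fos, 1.42 for Fosb and 1.45 for Atf3. All tested genes shifted there by a median of 1.30. These are bulk libraries, in which fewer cells of a type and less RNA per cell cannot be told apart.

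**Figure D1:**
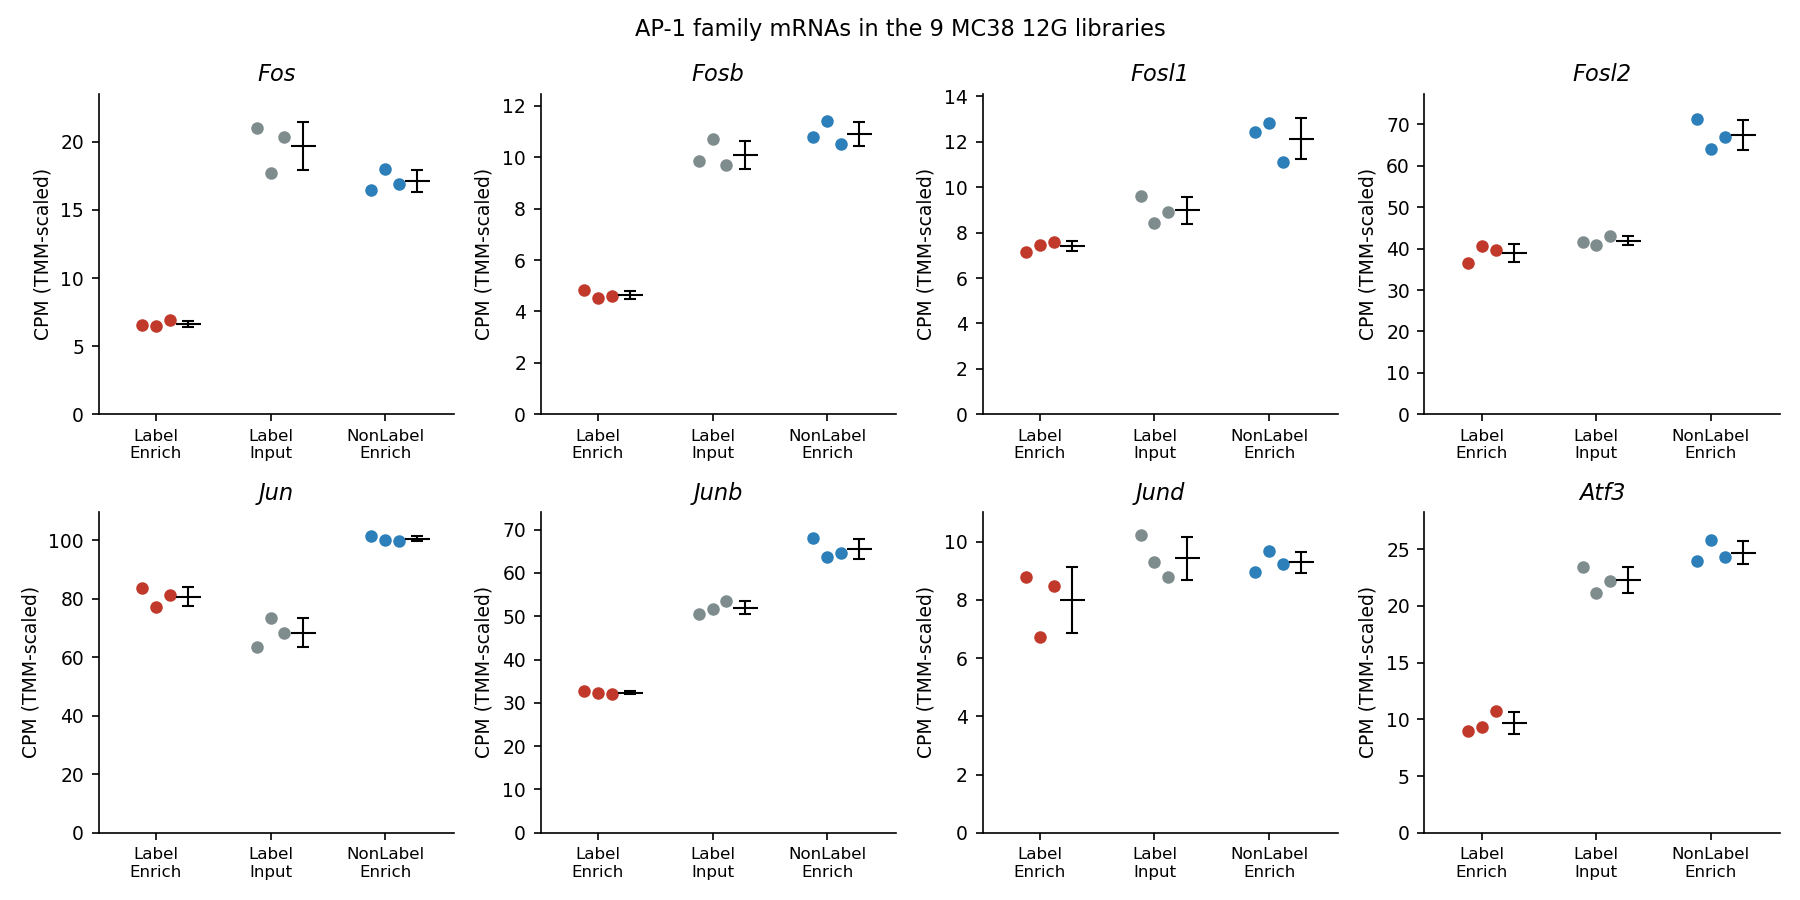
Levels of the 8 AP-1 family mRNAs in MC38 12G, in TMM-scaled CPM, for Label_Enrich, Label_Input and NonLabel_Enrich. Points are libraries and the bar beside them is the mean ± SD (n = 3). Fos, Fosb, Fosl1, Fosl2, Junb, Jund and Atf3 have their lowest mean in Label_Enrich, where Jund overlaps Label_Input. Jun in Label_Enrich lies between the other groups.

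Fos, the founding FOS protein and a classic marker of recent stimulation, had 194, 155 and 153 counts in the 3 Label_Enrich libraries, or 6.54, 6.50 and 6.91 CPM. It stood at 21.0, 17.7 and 20.4 CPM in Label_Input and at 16.4, 18.01 and 16.9 CPM in NonLabel_Enrich. All Label_Enrich libraries lay below all others, and the other groups overlapped. The log2 fold change was -1.58 ± 0.10 (SE) against Label_Input, a level 2.98-fold lower, and -1.36 ± 0.09 against NonLabel_Enrich. Among all tested genes, 1.14% had a more negative change in the first comparison and 0.33% in the second.

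Fosb, a FOS relative also known for a stable splice form in neurons, read 4.82, 4.53 and 4.61 CPM in Label_Enrich. The Label_Input libraries gave 9.86, 10.7 and 9.71 CPM, and NonLabel_Enrich 10.8, 11.4 and 10.5 CPM. Its Label_Enrich libraries were again below the rest, and the other groups overlapped. The log2 fold change was -1.11 ± 0.13 against Label_Input and -1.23 ± 0.11 against NonLabel_Enrich.

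Fosl1 and Fosl2 encode FRA1 and FRA2, FOS proteins that lack a strong activation domain and often outlast FOS after stimulation. Fosl1 read 7.15, 7.46 and 7.59 CPM in Label_Enrich, 9.62, 8.44 and 8.89 in Label_Input, and 12.5, 12.8 and 11.1 in NonLabel_Enrich. Fosl2 read 36.4, 40.5 and 39.8 CPM in Label_Enrich, 41.7, 40.9 and 43.2 in Label_Input, and 71.3, 64.1 and 66.9 in NonLabel_Enrich. Both were thus highest in captured RNA of unlabelled cells, without overlap, and closer together in the groups from labelled cells. Against NonLabel_Enrich the log2 fold changes were -0.72 ± 0.10 for Fosl1 and -0.80 ± 0.06 for Fosl2. Against Label_Input they were -0.29 ± 0.13 and -0.11 ± 0.07.

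Jun, the JUN protein that forms the classic dimer with FOS and is phosphorylated by JNK, read 83.6, 77.4 and 81.2 CPM in Label_Enrich. It stood at 63.5, 73.3 and 68.3 CPM in Label_Input and at 101.6, 100.2 and 99.9 CPM in NonLabel_Enrich. The 3 groups did not overlap, and Label_Enrich lay in the middle. The log2 fold change was 0.24 ± 0.05 against Label_Input and -0.32 ± 0.05 against NonLabel_Enrich. It was the single member whose Label_Enrich libraries all lay above those of Label_Input.

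Junb, a weaker activator that can oppose JUN, read 32.7, 32.3 and 32.1 CPM in Label_Enrich. Label_Input gave 50.6, 51.6 and 53.6 CPM, and NonLabel_Enrich 68.1, 63.8 and 64.6 CPM. The groups did not overlap and Label_Enrich was lowest, unlike for Jun. The log2 fold change was -0.68 ± 0.06 against Label_Input and -1.02 ± 0.06 against NonLabel_Enrich.

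Jund, the member with the most constant expression in most cells, read 8.80, 6.71 and 8.49 CPM in Label_Enrich, 10.2, 9.29 and 8.78 in Label_Input, and 8.97, 9.68 and 9.22 in NonLabel_Enrich. Its groups lay close together, and Label_Enrich overlapped Label_Input. The log2 fold changes were -0.23 ± 0.13 against Label_Input and -0.21 ± 0.10 against NonLabel_Enrich. The Label_Input counts of Jund were 85, 65 and 75, among the fewest of the 8 members.

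Atf3, a stress-induced ATF protein that pairs with JUN proteins and often represses, read 8.97, 9.31 and 10.7 CPM in Label_Enrich. It stood at 23.4, 21.2 and 22.2 CPM in Label_Input and at 24.0, 25.8 and 24.3 CPM in NonLabel_Enrich. Label_Enrich was far below both other groups, which were close to each other without overlap. The log2 fold change was -1.21 ± 0.09 against Label_Input and -1.36 ± 0.08 against NonLabel_Enrich.

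Read as a family, 4 of 8 members were called lower and 1 higher in Label_Enrich against Label_Input, where 28.7% of all tested genes were called, 14.2% higher and 14.6% lower. The members' median log2 fold change was -0.48, beside -0.02 over all tested genes. Against NonLabel_Enrich 7 of 8 were called lower and 0 higher, with 20.1% of all genes called, 10.4% higher and 9.63% lower. The members' median was -0.91, beside 0.00 over all genes. In NonLabel_Enrich against Label_Input, Fosl1, Fosl2, Jun and Junb were called higher and 0 members lower, with 29.5% of genes called, 14.8% higher and 14.7% lower. The median there was 0.24, beside -0.02. With library totals in place of TMM factors, the counts were 7 higher and 0 lower against Label_Input, 0 higher and 6 lower against NonLabel_Enrich, and 8 higher and 0 lower in NonLabel_Enrich against Label_Input. Under that scaling 11363, 6000 and 10929 of 11676 tested genes were called in the same order, 11271, 5827 and 10840 of them higher. Calls used an edgeR adjusted p under 0.05, and nothing is read from these counts, since the genes were chosen on the same libraries and each pair of comparisons shares a group. Without overlap of libraries, 6 members were lower and 1 higher in Label_Enrich against Label_Input, where 20.4% of all genes were lower and 19.2% higher in this way. All 8 were lower in Label_Enrich against NonLabel_Enrich, as were 17% of all genes, with 17.6% higher. In NonLabel_Enrich against Label_Input 5 members were higher and 0 lower, beside 19.5% and 19.3% of all genes.

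**Figure D2:**
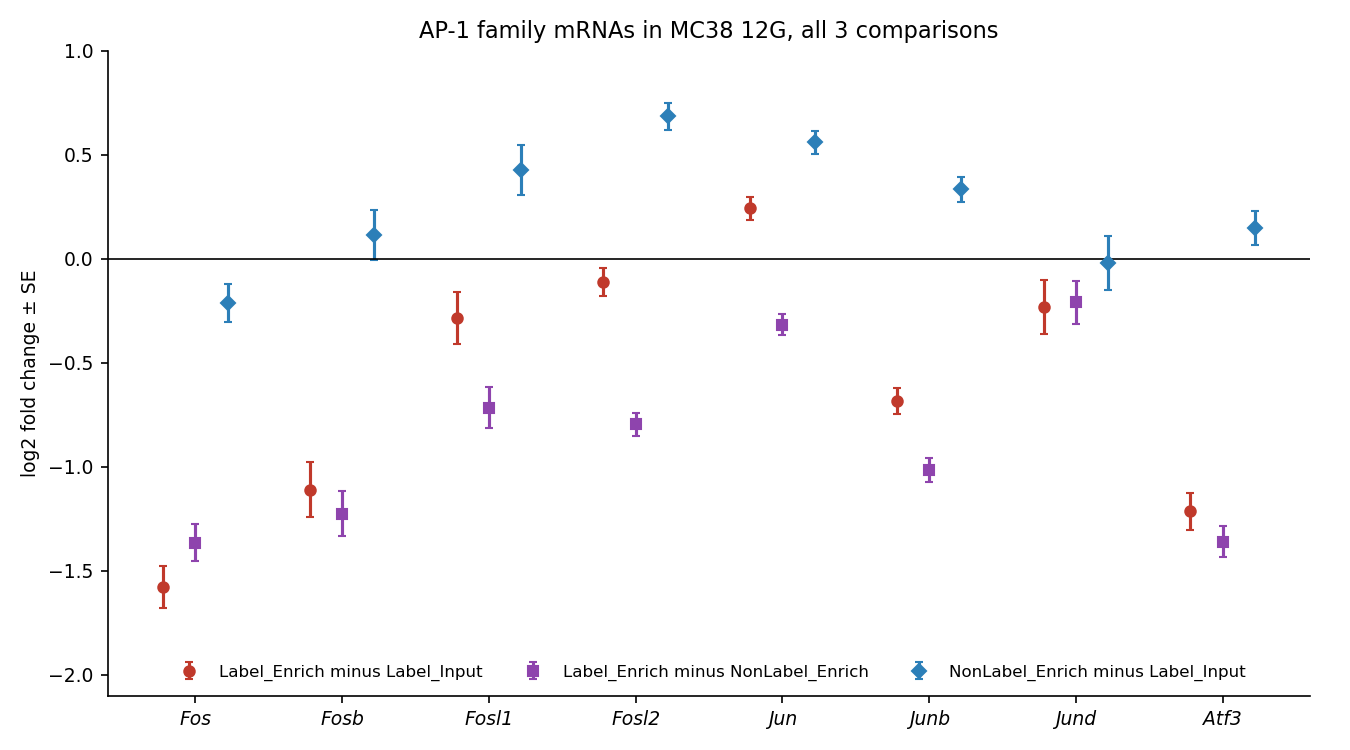
Log2 fold change ± SE of the 8 members in the 3 MC38 12G comparisons, from 1 edgeR fit over 9 libraries. All 8 lie below 0 in Label_Enrich minus NonLabel_Enrich, from -1.36 to -0.21, and Jun alone lies above 0 in Label_Enrich minus Label_Input, at 0.24.

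With the genome-wide trend of fold change on length subtracted, Fos stood at -1.50, Fosb at -1.17, Atf3 at -1.13, Junb at -0.57 and Jun at 0.22 against Label_Input. For levels between genes, counts were divided by transcript length. In Label_Enrich Jun led with 25.3 CPM per kb, ahead of Junb with 17.9 and Fosl2 with 5.95. Atf3 at 4.88, Jund at 4.80 and Fosl1 at 3.97 CPM per kb followed, and there Atf3 with Jund, and Jund with Fosl1, overlapped between libraries. Fos at 3.15 and Fosb at 1.23 CPM per kb came last. In Label_Input Junb led with 28.7 CPM per kb over Jun with 21.4, and Atf3 with 11.2 and Fos with 9.35 came next. Fosl2, Jund, Fosl1 and Fosb followed at 6.41, 5.65, 4.82 and 2.67 CPM per kb, and no neighbours overlapped. NonLabel_Enrich also began with Junb at 36.2, Jun at 31.5 and Atf3 at 12.5 CPM per kb, followed by Fosl2 at 10.3, Fos at 8.12, Fosl1 at 6.51, Jund at 5.57 and Fosb at 2.89, again without overlap of neighbours.

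The family summed to 67.2 ± 1.64 CPM per kb (SD, n = 3) in Label_Enrich, 90.3 ± 0.719 in Label_Input and 113.6 ± 1.72 in NonLabel_Enrich. The order of Label_Enrich and Label_Input in these sums depends on the scaling. With library totals the members' median log2 fold change in Label_Enrich against Label_Input was 1.13, and with TMM factors it was -0.48. The make-up of the family also differed between the groups. Jun made up 37.7% ± 0.841 of the family in Label_Enrich, 23.8% ± 1.76 in Label_Input and 27.8% ± 0.226 in NonLabel_Enrich. Fos made up 4.69% ± 0.112, 10.4% ± 0.890 and 7.15% ± 0.369 in the same order. Captured RNA of labelled cells thus held the most Jun-rich family and the input the most Fos-rich. Junb was 26.6%, 31.8% and 31.9%, and Atf3 7.25%, 12.4% and 10.96%.

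Ratios of counts within a library need no scaling between libraries. Fos counts per 100 Jun counts were 7.82, 8.40 and 8.51 in Label_Enrich, 33.1, 24.2 and 29.8 in Label_Input, and 16.2, 17.97 and 16.9 in NonLabel_Enrich. The 3 groups did not overlap. Atf3 per 100 Jun was 12.0 ± 1.25 in Label_Enrich, 32.8 ± 4.05 in Label_Input and 24.6 ± 1.10 in NonLabel_Enrich, and Fosb was 5.76 ± 0.090, 14.8 ± 0.675 and 10.8 ± 0.478. Junb was 40.1 ± 1.44, 76.2 ± 5.07 and 65.1 ± 1.74, in the same order of groups. Fosl2 differed from these in having its highest mean in NonLabel_Enrich, with 48.3 ± 4.44, 61.6 ± 5.18 and 67.0 ± 3.13 per 100 Jun. Fosl1 was 9.18 ± 0.567, 13.2 ± 1.83 and 12.1 ± 0.856, and Jund 9.88 ± 1.05, 13.9 ± 1.93 and 9.24 ± 0.416.

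**Figure D3:**
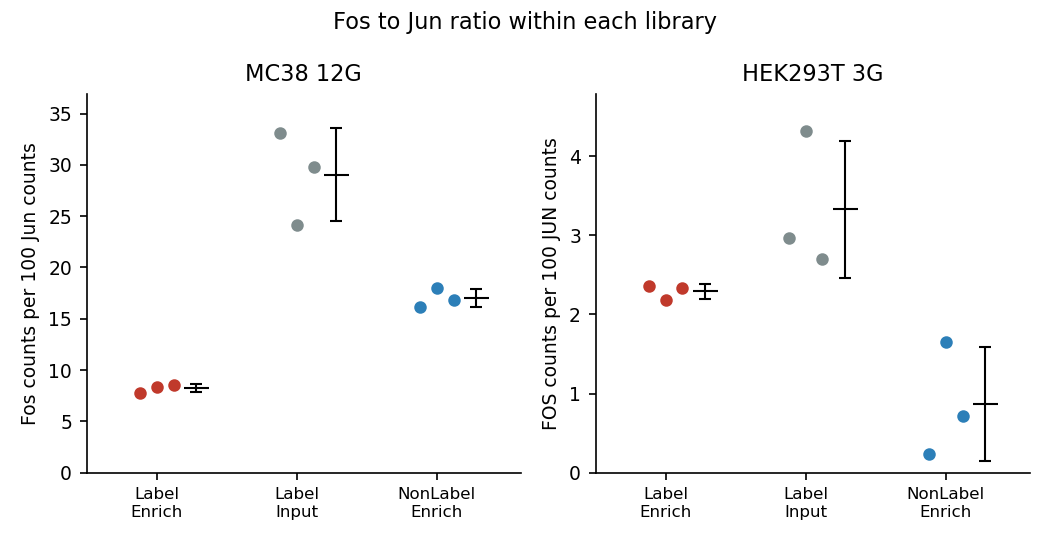
Fos counts per 100 Jun counts within each library, for mouse genes in MC38 12G and human genes in HEK293T 3G. Points are libraries and bars are mean ± SD (n = 3). Label_Input is highest in both lines, and the lowest group is Label_Enrich in MC38 (8.24) and NonLabel_Enrich in HEK293T (0.867).

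The sign of several MC38 values against Label_Input depended on the scaling. Feature ENSMUSG00000119584, which has no name in the reference, and Lars2 took most counts of every MC38 library, and their share differed between groups. With library totals in place of TMM factors, the median of all tested genes moved by 1.62 in Label_Enrich against Label_Input, and the members moved with it: Fos then stood at 0.04, Fosb at 0.51, Atf3 at 0.41, Junb at 0.94, Fosl1 at 1.33, Jund at 1.38 and Fosl2 at 1.51. Jun stood at 1.86. A change of scaling moves all genes by about the same amount, so distances between genes stay nearly as they were by construction. Against NonLabel_Enrich the median moved by 0.32, with Fos at -1.05 and Atf3 at -1.04, and Jund changed sign to 0.11. With totals that left out those 2 features, Fos was at -1.33, Atf3 at -0.97 and Jun at 0.49 against Label_Input, and the median moved by 0.25. Both settings were chosen after seeing the data.

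**Figure D4:**
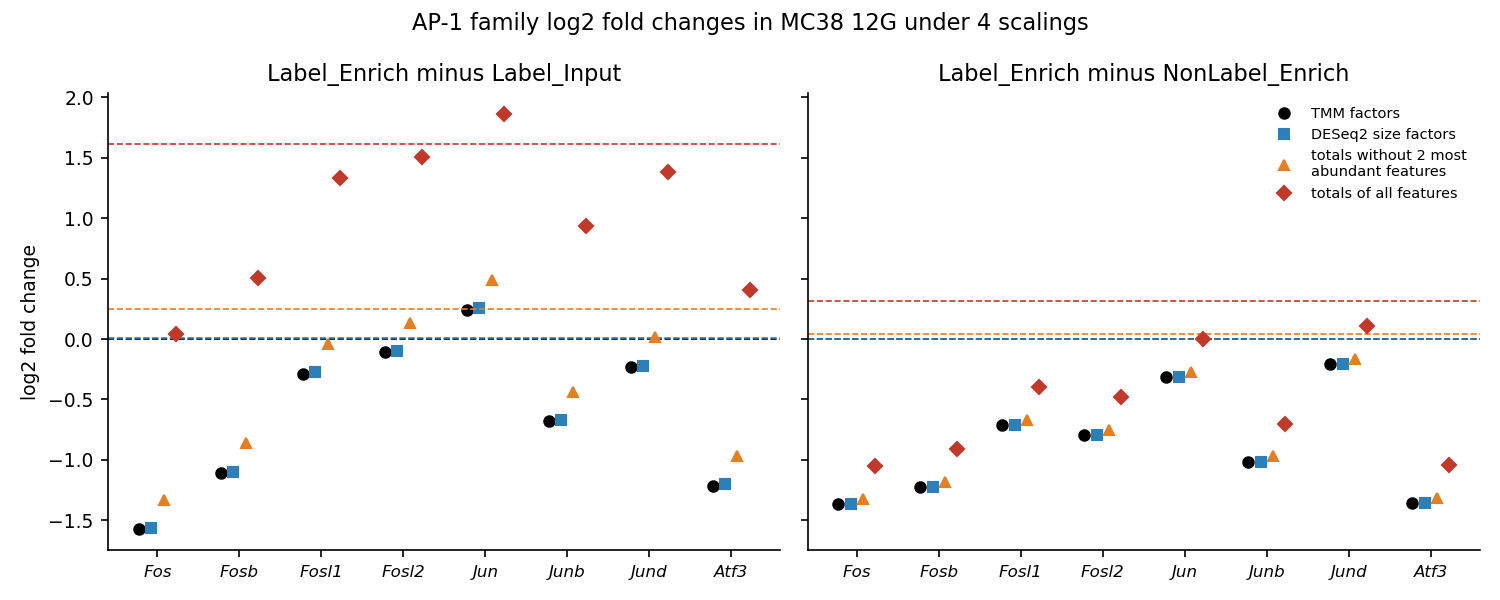
Log2 fold changes of the 8 members under 4 scalings, against Label_Input and against NonLabel_Enrich in MC38 12G. Dashed lines are the median shift of all tested genes from TMM scaling, in the colour of each scaling. Points of a gene move with their line, and against Label_Input under totals of all features the line is at 1.62 and Fos at 0.04.

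In HEK293T the FOS and JUN mRNAs were both lower in captured RNA of labelled cells than before capture, and both were higher there than in captured RNA of unlabelled cells. FOS had 24, 17 and 10 counts in Label_Enrich, or 21.2, 20.3 and 17.4 CPM. It had 34, 58 and 26 counts in Label_Input, or 59.0, 90.4 and 67.4 CPM. NonLabel_Enrich held 1, 4 and 3 counts, or 1.31, 8.25 and 3.73 CPM. The groups did not overlap, and the lowest counts were close to the limit of detection. Their exact 95% Poisson intervals, which cover counting error only, ran from 0.025 to 5.57, from 1.09 to 10.2 and from 0.619 to 8.77 counts. FOS passed the low-count filter through Label_Enrich as well as Label_Input, and its NonLabel_Enrich levels lay below the filter. Its differences from Label_Input are given without a p.

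The log2 fold change of FOS was -1.86 ± 0.28 in Label_Enrich against Label_Input, where 29% of 9177 tested genes were called, 17.1% higher and 12% lower. It rose by 2.29 ± 0.49 against NonLabel_Enrich (edgeR adjusted p = 0.000146), where 23.2% were called, 15.9% higher and 7.33% lower. In NonLabel_Enrich against Label_Input it was -4.16 ± 0.40, where 7% were called, 2.96% higher and 4.03% lower. Over all alternatives tried, the edgeR or DESeq2 adjusted p of FOS against NonLabel_Enrich ran up to 0.00746. With 1 library left out at a time, that difference ran from 1.82 without the first NonLabel_Enrich library to 2.88 without the second, which held 4 of the 8 FOS counts of its group. NonLabel_Enrich against Label_Input ran from -4.75 to -3.69 without the second and the first of these libraries.

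The JUN mRNA was counted far more often than FOS. It read 897, 927 and 745 CPM in Label_Enrich, 1990, 2097 and 2496 in Label_Input, and 553, 499 and 524 in NonLabel_Enrich. No groups of FOS or JUN overlapped. Of all tested genes, 18.8% were lower and 21.3% higher without overlap in Label_Enrich against Label_Input, 15.1% and 20% against NonLabel_Enrich, and 12.1% and 11.4% in NonLabel_Enrich against Label_Input. JUN fell by 1.35 ± 0.09 on the log2 scale against Label_Input (edgeR adjusted p = 8.43e-21) and rose by 0.71 ± 0.10 against NonLabel_Enrich (edgeR adjusted p = 7.72e-09). In NonLabel_Enrich against Label_Input it fell by 2.06 ± 0.10 (edgeR adjusted p = 1.03e-28). Mouse Jun went the other way in all 3 of these comparisons, and mouse Fos in Label_Enrich against NonLabel_Enrich. The difference between the lines was not tested, since species, depth and the counted annotation all differ between the sets.

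**Figure D5:**
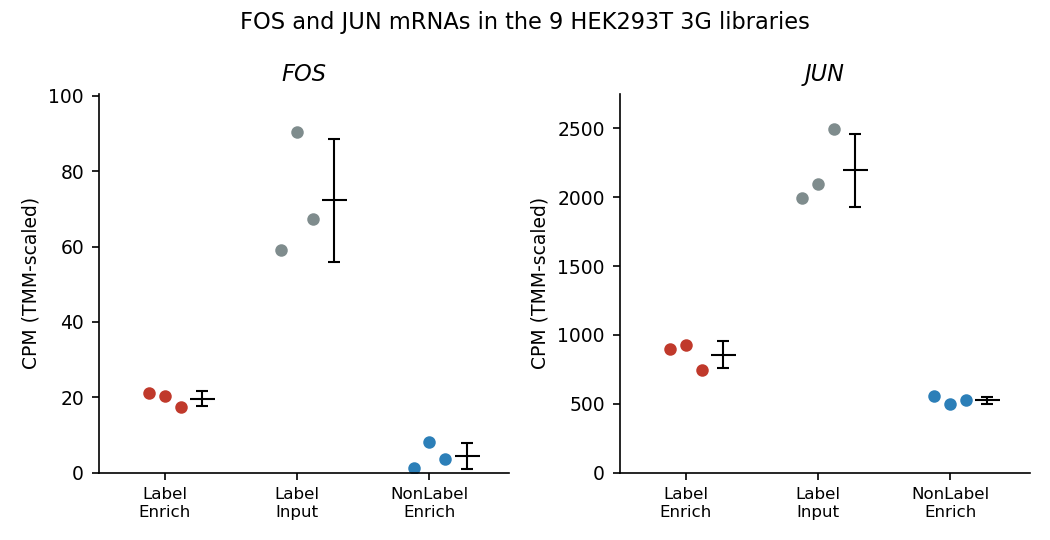
FOS and JUN levels in the 9 HEK293T 3G libraries, in TMM-scaled CPM, with mean ± SD (n = 3). For both genes Label_Input is highest, Label_Enrich lies in the middle and NonLabel_Enrich is lowest, with means of 72.3, 19.6 and 4.43 CPM for FOS and 2194, 856 and 526 CPM for JUN.

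FOS counts per 100 JUN counts were 2.36, 2.19 and 2.33 in Label_Enrich, 2.97, 4.31 and 2.70 in Label_Input, and 0.238, 1.65 and 0.711 in NonLabel_Enrich. No groups overlapped. The exact 2-sided permutation p was 0.1 for each pair of groups, the smallest that 3 against 3 libraries allow.

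Over the 9 MC38 libraries the members fell into patterns, given here by Pearson's r of log2(CPM + 1) as a description, since the libraries share 3 groups. Fosb and Atf3 were most alike (r = 0.985), followed by Fos with Atf3 (0.971), Fos with Fosb (0.964) and Fosb with Junb (0.962). Fosl1 and Fosl2 were alike as well (0.932). Jun was nearest to Fosl2 (0.795) and had r = -0.06 with Fos.

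Among 2195 other genes whose mean reached 20 CPM, the 5 whose pattern was most like Fos were Dnajb1 (r = 0.995), Sgk1 (0.979), Insig1 (0.975), Hspa1b (0.974) and Stk24 (0.969). Dnajb1 and Hspa1b encode heat shock chaperones, Sgk1 a kinase induced by serum and glucocorticoids, and Insig1 an ER protein that holds back sterol synthesis. Dnajb1 stood at 39.0 CPM in Label_Enrich, 74.0 in Label_Input and 67.1 in NonLabel_Enrich. Likeness by r does not measure the size of a change. Insig1 stood at 77.6, 93.4 and 91.5 CPM and Stk24 at 18.6, 21.7 and 21.7 CPM in that order, smaller differences than those of Fos. The 5 most like Jun were Dusp4 (0.985), Yy1 (0.984), Zcchc14 (0.978), Irf2bpl (0.978) and Sh3pxd2a (0.971). Dusp4, a phosphatase of MAP kinases, stood at 34.3, 28.3 and 50.4 CPM in the same order of groups.

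Other genes of the pathway were taken from lists chosen with earlier results known. Unless library totals are named, their counts are those under TMM scaling, read beside the shares of all tested genes. These were 10.4% higher and 9.63% lower against NonLabel_Enrich, and 14.2% higher and 14.6% lower against Label_Input. Counts with library totals are read beside the 5827 of 11676 tested genes higher against NonLabel_Enrich under that scaling, and 11271 against Label_Input. Examples were named for a small p against NonLabel_Enrich or for being abundant and not called. Since that choice used the same libraries, the p-values of these examples are a description and no independent evidence. Of 27 bZIP and MAF partners, 23 were tested, and 7 were lower and 1 higher in Label_Enrich against NonLabel_Enrich (median -0.11). With library totals 2 were lower and 9 higher (median 0.21). Mafk, a small MAF protein, fell by 0.73 ± 0.08 there (edgeR adjusted p = 2.13e-10), and Cebpb, a bZIP factor of inflammation, fell by 0.45 ± 0.06 (edgeR adjusted p = 7.85e-08). Nfe2l1, an ER-anchored bZIP factor, was the most abundant partner not called there, at 0.09 ± 0.05, and stood 0.55 ± 0.06 above Label_Input (edgeR adjusted p = 1.15e-11). Against Label_Input 7 partners were lower and 3 higher, with a median of -0.04.

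Upstream of AP-1, 23 of 24 genes of the SRF, ternary complex factor and MAP kinase route were tested. Against NonLabel_Enrich 4 were lower and 1 higher (median -0.13), beside 9.63% and 10.4% of all genes. With library totals 0 were lower and 9 higher (median 0.19), where 5827 of 11676 tested genes were higher. With TMM factors Srf, the factor that binds the serum response element, fell by 0.47 ± 0.06 against NonLabel_Enrich (edgeR adjusted p = 3.13e-08). It was not called lower there with library totals. With TMM factors Srf was at 0.09 ± 0.08 against Label_Input. Against Label_Input 2 genes of this list were lower and 1 higher, shares below those of all genes.

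Downstream, 18 of 25 classical AP-1 targets were tested, and 4 were higher and 4 lower against NonLabel_Enrich (median -0.06), beside 10.4% and 9.63% of all genes. With library totals 11 were higher and 1 lower (median 0.26), where 5827 of 11676 tested genes were higher. Spp1 (osteopontin), Ccl2 (a chemokine) and Timp1 (an inhibitor of metalloproteinases) are secreted proteins and rose by 0.52 ± 0.05, 0.44 ± 0.06 and 0.45 ± 0.07 there, with edgeR adjusted p of 8.7e-15, 1.06e-07 and 7.99e-07. Against Label_Input they stood at 0.11 ± 0.05, -0.38 ± 0.07 and -0.11 ± 0.08. In NonLabel_Enrich against Label_Input they stood at -0.41 ± 0.05, -0.82 ± 0.07 and -0.56 ± 0.09. The 4 targets called lower are not among the named examples. Ezr, which links membrane and actin, was at -0.05 ± 0.04. Against Label_Input 5 targets were lower and 4 higher, beside 14.6% and 14.2% of all genes.

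Of 22 other immediate early regulators, all tested, 21 were lower and 0 higher both against Label_Input (median -0.82) and against NonLabel_Enrich (median -1.13), comparisons that share Label_Enrich. The shares of all genes lower were 14.6% and 9.63%. With library totals, 11271 and 5827 of 11676 tested genes were higher in these comparisons. Of this list 20 were then higher and 1 lower against Label_Input (median 0.79), and 0 higher and 19 lower against NonLabel_Enrich (median -0.82). An earlier count on these libraries had shown this direction, so it is no independent evidence. Egr1, a zinc finger factor, stood at 69.0 ± 1.54 CPM in Label_Enrich, 138.3 ± 5.76 in Label_Input and 167.0 ± 3.48 in NonLabel_Enrich. Dusp1, a MAP kinase phosphatase, was at -1.39 ± 0.05 and Ier2, an early gene of unsettled function, at -1.36 ± 0.06 against NonLabel_Enrich. Among 30 constitutive nuclear transcription factors, which are also made on cytosolic ribosomes, 3 were lower and 0 higher against NonLabel_Enrich (median -0.09), and 6 were lower and 2 higher against Label_Input (median -0.08). The 3 of 30 lower against NonLabel_Enrich is near the 9.63% of all genes, and library totals gave 13 higher and 0 lower there (median 0.22). Against Label_Input library totals put every tested gene of this list and of the partner, upstream and target lists higher, with medians of 1.52 to 1.63. With TMM factors Rela, an NF-κB subunit, fell by 0.41 ± 0.06 against NonLabel_Enrich (edgeR adjusted p = 4.77e-07), and with library totals it was not called lower. Tfdp1, a partner of E2F, was at 0.05 ± 0.06 against NonLabel_Enrich with TMM factors.

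Some genes listed as markers of other cell types differed between the groups. Label_Enrich and Label_Input are both RNA of labelled cells, after and before capture, so these levels are not read as numbers of cells. The 8 fibroblast and endothelial markers summed to 102.9 to 107.5 CPM in Label_Enrich, 82.5 to 84.0 in Label_Input and 74.2 to 79.2 in NonLabel_Enrich, and Lum and Kdr were at 0. Of the 3 tested, Dcn, Pdgfra and Pdgfrb, all were higher in Label_Enrich than in NonLabel_Enrich, by 0.65 ± 0.06, 0.41 ± 0.07 and 0.29 ± 0.06. Against Label_Input they differed from each other, at -0.01 ± 0.07, 0.84 ± 0.09 and 0.51 ± 0.07. The 8 blood-lineage markers summed to 9.002 to 9.56 CPM in Label_Enrich, 8.15 to 8.78 in Label_Input and 6.98 to 8.46 in NonLabel_Enrich. Their part in the AP-1 values was not tested.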

How the data were processed

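Total RNA libraries of HEK293T and MC38 cells were sequenced, and each set has 1 deposited table of raw counts by Ensembl ID. The tools named are HTSeq 0.7.2, HISAT2 2.1.0, DESeq2 1.16.1 and cutadapt 1.18, with builds GRCm39 and GRCh38, per the submitters' processing notes. Strand, annotation release and the handling of reads with several matches are not stated in any source used, so reads from overlapping or antisense genes cannot be told apart. Columns not used: 0. Mouse names, transcript lengths and 3′ regions came from GENCODE M21 (older build GRCm38), which named 52073 features, and promoters from RefSeq (GRCm38.p6).

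For each set, 9 libraries entered 1 fit by group in edgeR 4.0.16 (R 4.3.3) with TMM factors, the default low-count filter and the 2-sided quasi-likelihood test, adjusted by Benjamini-Hochberg over all tested genes, with calls at 0.05. SE is the absolute log2 fold change over the square root of F. DESeq2 1.42.0 was an alternative. The fit was tested on simulated data. The members, lists and tests were chosen with earlier results of these data known, and the choice used no HEK293T value of FOS or JUN. Named were all members, the 5 genes most like Fos and the 5 most like Jun, and examples from up to 3 list genes with the smallest p in Label_Enrich against NonLabel_Enrich, with the most abundant one not called there. Some genes that this rule or a marker list names are not reported here. Separate cultures for replicates are not stated, so p-values measure the spread between these libraries. Counting intervals are exact Poisson (95%) and cover counting error only.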

Additional observations from a re-analysis of the deposited data

Results flagged for a closer look

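The direction of Fos and Jun differed between the cell lines in 4 cases, in which every library of one line moved one way and every library of the other line the opposite way. For FOS in Label_Enrich against NonLabel_Enrich, the HEK293T log2 fold change minus that of MC38 was 3.66. For JUN this difference was -1.59 in Label_Enrich against Label_Input, 1.02 in Label_Enrich against NonLabel_Enrich and -2.62 in NonLabel_Enrich against Label_Input. The difference itself was not tested, and MC38 Jun was among the values that chose the genes. Under library totals MC38 Jun stood at -0.00 against NonLabel_Enrich.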

How the results depend on the processing

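Every alternative run kept the direction and call of JUN in HEK293T and of FOS against NonLabel_Enrich, and the direction of FOS against Label_Input. With the replicate number as a block, FOS was at -1.83 against Label_Input and 2.27 against NonLabel_Enrich, and the block changed no call of a member. Same-numbered libraries deviated together with r from -0.067 to 0.196 in MC38 and -0.026 to 0.022 in HEK293T, so the numbers were not taken as pairs. In MC38, calls over all genes in Label_Enrich against NonLabel_Enrich numbered 2342, and 1512 with DESeq2. A filter of 10 CPM left 2190 calls of 3354 against Label_Input and 2251 of 3440 in NonLabel_Enrich against Label_Input, where fewer genes were tested. Library totals gave 11363, 6000 and 10929 calls in Label_Enrich against Label_Input, Label_Enrich against NonLabel_Enrich and NonLabel_Enrich against Label_Input, with 11271, 5827 and 10840 of them higher, and called 8 members, not 4, in the last. In HEK293T the last comparison had 642 calls, 375 with DESeq2, 2016 with library totals and 395 to 664 with 1 library left out, the lowest without Label_Input replicate 2. The cause was not tested.

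Signs changed under library totals for Fos (0.043), Fosb (0.51), Fosl1 (1.33), Fosl2 (1.51), Junb (0.94), Jund (1.38) and Atf3 (0.41) against Label_Input, for Jund (0.11) against NonLabel_Enrich, and for Fos (1.09) and Jund (1.28) in NonLabel_Enrich against Label_Input, where all genes shifted by a median of 1.62, 0.32 and 1.30. Totals without the 2 most abundant features changed Fosl2 (0.13) and Jund (0.013) against Label_Input. Jund in NonLabel_Enrich against Label_Input, -0.02 in the reported fit, was 0.18 there, 0.051 without a filter, 0.16 with the 3G counts, and -0.074 to 0.046 with 1 library left out, above 0 without Label_Input replicate 1 or NonLabel_Enrich replicate 1. Calls were gained for Fos in NonLabel_Enrich against Label_Input with the 10 CPM filter (-0.26), without Label_Input replicate 2 (-0.27) and with the 3G counts (-0.37), for Fosb and Atf3 there under both totals (1.42 and 1.45, 0.32 and 0.35), and for Fosl2 against Label_Input with the 10 CPM filter (-0.17). Jun against NonLabel_Enrich lost its call under library totals (-0.00). Depth limits FOS in HEK293T, with 8 counts in NonLabel_Enrich.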
